A study of Homo sapiens with 4 samples.

Results

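The transcripts described here encode the factors that turn on major histocompatibility complex (MHC) class II genes and the proteins that load peptides onto class II molecules. They are 10 genes, chosen by name: CIITA, RFX5, RFXAP, RFXANK and CREB1 among the regulators, and CD74, HLA-DMA, HLA-DMB, HLA-DOA and HLA-DOB for peptide loading. The array held 14 probes for them, and 13 of these probes, with at least 1 for each gene, had a quality weight above 0 on all arrays, out of 26219 such probes, naming 20654 genes, in the whole series. RNA came from THP1 cells, a monocytic acute myeloid leukemia line with a t(9;11) translocation that expresses the MLL-AF9 fusion. The knockdown group received siRNA-A or siRNA-B, which target the MLL-AF9 fusion site, and the control group received non-targeting control siRNA-1 or control siRNA-2. All cells were transfected on days 0, 3 and 6 and harvested on day 8, were kept in medium with less serum from day 6, and contributed to 1 pooled RNA per siRNA from 5 independent experiments. Thus 2 knockdown arrays were compared with 2 control arrays, each made with a different siRNA, in a line that still had its own class II genes in both groups. All 4 arrays lay on 1 slide with the knockdown arrays at the first positions, so that treatment and slide position cannot be told apart.

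MHC class II molecules show peptides from the endocytic route to CD4 T cells, and they are carried by antigen-presenting cells such as monocytes, dendritic cells and B cells. A short promoter with X and Y boxes sits before each class II gene. The RFX complex (RFX5, RFXAP and RFXANK) and CREB1 bind the X boxes, NF-Y binds the Y box, and CIITA, which does not bind DNA by itself, joins them as the coactivator whose amount sets class II transcription. New class II dimers are held by the invariant chain, the product of CD74. In late endosomes HLA-DM, a dimer of HLA-DMA and HLA-DMB, exchanges the last piece of the invariant chain for peptide, and HLA-DO, a dimer of HLA-DOA and HLA-DOB, restrains HLA-DM.

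After knockdown, CIITA, CD74, HLA-DMA and HLA-DMB rose, on 5 of their 6 probes, by 1.56-fold to 2.80-fold. Neither HLA-DO gene and none of the 4 other regulators passed the test in either direction. A probe counted as called where limma gave an unadjusted p below 0.005, which is one part of the rule of the study. The other part, a test over identical replicate spots, was not applied, because each member probe was printed on 1 spot. Across the whole array the threshold called 0.584% of probes higher and 0.732% lower. Of the 13 probes, 5 were called higher and 0 lower, and the one probe with an adjusted p under 0.05 was that of HLA-DMB, against 0.0648% of all probes called higher at that level. This adjusted call was lost in 9 of 12 alternative fits, in which 0 probes of the whole array had an adjusted p under 0.05: the 5 with another background correction or normalization and the 4 with an array left out. HLA-DMB kept an unadjusted p under 0.005 in all 12. At an unadjusted p under 0.05 in limma, 6 of the 13 probes passed, against 8.06% of all probes, and the sixth was a probe of RFX5 that was lower. The median log2 fold change of the 13 probes was -0.11 and that of all probes was -0.02. The number of called probes fell to 1 without siRNA-A, to 2 without siRNA-B and to 1 without control siRNA-2, and it was 5 without control siRNA-1.

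**Figure D1:**
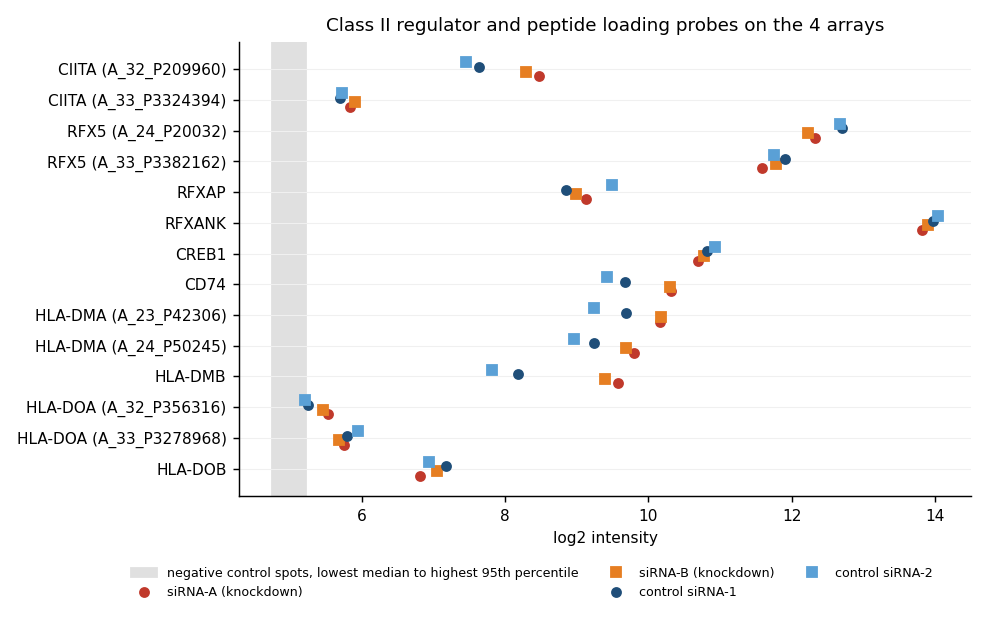
Log2 intensity of the 14 member probes (rows) on the 4 arrays, with red and orange points for siRNA-A and siRNA-B and blue points for the controls. The grey band spans the negative control spots. For HLA-DMB, CD74, HLA-DMA and the CIITA probe A_32_P209960 both knockdown arrays lie to the right of both control arrays. The same order holds for the dim CIITA probe A_33_P3324394 and the untested HLA-DOA probe A_32_P356316.

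CIITA, the coactivator of class II transcription, was measured by 2 probes that gave different values. The probe A_32_P209960 (chr16:11018667-11018726, hg19, plus strand) begins at base 4480 of the transcript. Its log2 intensity was 8.47 with siRNA-A and 8.29 with siRNA-B, against 7.64 with control siRNA-1 and 7.46 with control siRNA-2. Both knockdown arrays were above both control arrays, as for 15.2% of all probes. The log2 fold change was 0.83 (SE 0.12, adjusted p = 0.0753 in limma), which is 1.78-fold, and its unadjusted p in limma was 1.15e-04. On the list of all probes ordered from the largest rise it took place 38.

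The other CIITA probe lies 3636 bases nearer to the 5' end of the transcript and 22069 bases away in the genome. Its sequence is shown because the contrast between the CIITA probes turns on it.
CIITA probe A_33_P3324394, chr16:10996598-10996657, strand +: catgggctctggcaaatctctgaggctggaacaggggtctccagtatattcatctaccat
It begins at base 844 of the transcript, and its log2 intensities were 5.83 with siRNA-A, 5.91 with siRNA-B, 5.70 with control siRNA-1 and 5.73 with control siRNA-2. These levels were well above background on all 4 arrays but close to the negative control spots, whose medians ranged from 4.75 to 4.83. The groups did not overlap, yet the log2 fold change of 0.16 (95% interval -0.09 to 0.40, adjusted p = 0.789 in limma) did not pass the test. On the signal after background subtraction the same probe gave 23.5 and 24.4 in the knockdown arrays against 20.6 and 18.9 in the control arrays.

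Within each array the log2 intensity of A_32_P209960 exceeded that of A_33_P3324394 by 2.63 for siRNA-A, 2.38 for siRNA-B, 1.94 for control siRNA-1 and 1.73 for control siRNA-2. The gap between the probes was wider on each knockdown array than on either control array, by 0.67 in the mean. An exact two-sided permutation test over the arrays gave p = 0.333, the smallest value that 2 against 2 arrays can give. The part of the low level of the 5' probe in this gap was not tested.

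The factors that bind class II promoters did not rise. RFX5, the DNA-binding subunit of the RFX complex, had 2 probes. For A_24_P20032, which begins at base 3338 of the transcript, the log2 intensities were 12.33 and 12.23 with siRNA-A and siRNA-B and 12.70 and 12.67 with control siRNA-1 and control siRNA-2. Both knockdown arrays were below both control arrays, as for 21.4% of all probes. The log2 fold change was -0.40 (SE 0.11, 95% interval -0.65 to -0.15), and its p of 0.00566 in limma (adjusted p = 0.393) missed the threshold. Where only probes well above background entered the fit, limma gave an unadjusted p of 0.00442, which passed. The second probe, A_33_P3382162, which begins 1101 bases earlier, gave 11.59 and 11.78 against 11.90 and 11.75. There the groups overlapped, and the log2 fold change was -0.14 (95% interval -0.42 to 0.14, adjusted p = 0.829 in limma).

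The within-array difference between the RFX5 probes was 0.74 and 0.45 on the knockdown arrays and 0.80 and 0.92 on the control arrays, so that the probes differed in log2 fold change by -0.26 (exact permutation p = 0.333, two-sided). RFXANK, the ankyrin repeat subunit of the complex, read 13.82 and 13.90 after knockdown and 13.97 and 14.04 in the controls. Its log2 fold change was -0.15 (95% interval -0.40 to 0.10). For RFXAP, the RFX-associated protein, the knockdown arrays at 9.13 and 9.00 lay between control siRNA-1 at 8.85 and control siRNA-2 at 9.50. The controls thus spread more widely than the groups differed, and the log2 fold change of -0.11 (95% interval -0.55 to 0.33) turned to 0.21 without control siRNA-2. CREB1, which binds the second part of the X box, read 10.69 and 10.78 against 10.82 and 10.93, a log2 fold change of -0.14 (95% interval -0.40 to 0.12). All 5 probes of these 4 factors had a log2 fold change below 0, as had 55.5% of all probes. Of the 5, 3 had both knockdown arrays below both control arrays, against 21.4% of all probes.

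**Figure D2:**
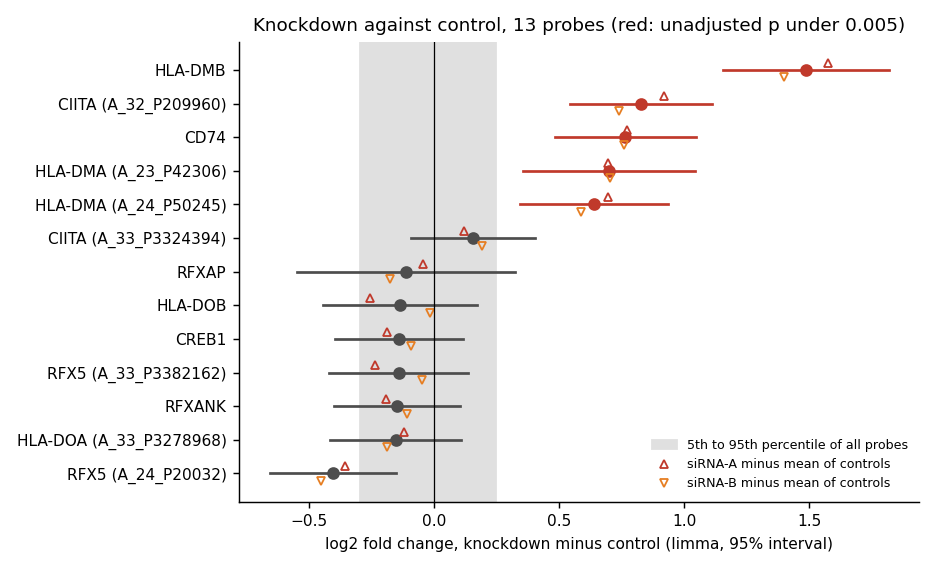
Log2 fold change of knockdown over control for the 13 tested probes (filled points) with the 95% interval from limma, and the difference of each siRNA from the mean of the controls (open triangles). The grey band holds the 5th to 95th percentile of all probes. The 5 called probes, in red, lie between 0.64 and 1.49, and the other probes between -0.40 and 0.16.

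Among the loading proteins HLA-DMB, the beta chain of HLA-DM, changed most. Its log2 intensity was 9.57 with siRNA-A and 9.40 with siRNA-B, against 8.18 with control siRNA-1 and 7.82 with control siRNA-2. The lowest knockdown array was well above the highest control array. The log2 fold change was 1.49 (SE 0.15, 95% interval 1.16 to 1.82, adjusted p = 0.0240 in limma), or 2.80-fold, and HLA-DMB took place 8 among all probes ordered from the largest rise. Against the mean of the controls, siRNA-A gave 1.58 and siRNA-B 1.40 on the log2 scale.

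HLA-DMA, the alpha chain, was read by 2 probes that differed little. A_23_P42306 gave 10.16 and 10.17 after knockdown against 9.69 and 9.25, a log2 fold change of 0.70 (SE 0.15, adjusted p = 0.229 in limma). A_24_P50245, whose sequence shows where the alpha chain was read, gave 9.80 and 9.69 against 9.25 and 8.96, a log2 fold change of 0.64 (SE 0.13, adjusted p = 0.208 in limma).
HLA-DMA probe A_24_P50245, chr6:32917418-32917477, strand -: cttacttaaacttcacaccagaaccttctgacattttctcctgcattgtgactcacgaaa
On both probes the knockdown arrays lay above the control arrays, and the unadjusted p in limma was 0.00137 and 9.22e-04. The probes differed by 0.06 in log2 fold change (exact permutation p = 0.667, two-sided), within the pooled SD of 0.10 of that difference.

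CD74, the invariant chain that fills the groove of new class II dimers, was read near the 5' end, from base 51 of the transcript.
CD74 probe A_23_P70095, chr5:149792222-149792281, strand -: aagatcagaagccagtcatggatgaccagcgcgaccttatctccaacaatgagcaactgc
The log2 intensity was 10.32 with siRNA-A and 10.31 with siRNA-B, against 9.67 with control siRNA-1 and 9.43 with control siRNA-2. The siRNAs against the fusion gave nearly the same level and the controls differed by more than these did. The log2 fold change was 0.77 (SE 0.12, 95% interval 0.48 to 1.05, adjusted p = 0.105 in limma), which is 1.70-fold with an unadjusted p in limma of 1.89e-04.

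HLA-DO, the modulator of HLA-DM, did not follow on its tested probes. HLA-DOB read 6.81 and 7.04 after knockdown and 7.18 and 6.94 in the controls, so the groups overlapped. Its log2 fold change was -0.14 (95% interval -0.44 to 0.17, adjusted p = 0.860 in limma). The tested HLA-DOA probe, A_33_P3278968, read 5.75 and 5.69 against 5.79 and 5.95, with both knockdown arrays below both controls, and its log2 fold change was -0.15 (95% interval -0.42 to 0.11, adjusted p = 0.805 in limma). A rise of the size seen for HLA-DMA lies outside these intervals on the log2 intensity scale, which lowers the change of dim probes. The second HLA-DOA probe, A_32_P356316, had weight 0 on all arrays and was well above background on none. It was not tested, with log2 intensities of 5.52 and 5.46 after knockdown and 5.25 and 5.21 in the controls.

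Set against each other within an array, HLA-DMB exceeded HLA-DOB by 2.77 and 2.35 on the knockdown arrays and by 1.00 and 0.87 on the control arrays in log2 intensity of these probes. The changes of the beta chains thus differed by 1.62 on the log2 scale. For the alpha chains the difference was 0.85, from 4.41 and 4.48 on the knockdown arrays and 3.89 and 3.29 on the control arrays, with the HLA-DMA probe A_23_P42306. The HLA-DOA probe was dim, with 18.5 to 25.8 units left after background subtraction, and on that signal the log2 fold changes were 0.73 for HLA-DMA and -0.27 for HLA-DOA. Levels of different probes cannot be set against each other, so only the change of each gap between arrays is of use. In both pairs the knockdown arrays stood apart from the control arrays, and the exact two-sided permutation test gave its smallest possible p, 0.333.

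The promoters of the loading genes are shown because class II control elements lie before genes that rose and before genes that were not called. They are the 150 bases before the transcription start, from RefSeq on GRCh38.p14, and HLA-DRB1, a classical class II gene, is added for comparison. Capitals mark, on either strand, ATTGG (the Y box, which reads CCAAT on the other strand), GCAAC (an X1 element), TGACG (an X2 element) and CTGATGATG (an X box core, chosen after these promoters were read).
HLA-DMA, chr6:32953098-32953247, strand -: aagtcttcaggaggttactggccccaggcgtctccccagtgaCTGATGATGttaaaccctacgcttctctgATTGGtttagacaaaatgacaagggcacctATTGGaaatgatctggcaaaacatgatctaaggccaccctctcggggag
HLA-DMB, chr6:32941029-32941178, strand -: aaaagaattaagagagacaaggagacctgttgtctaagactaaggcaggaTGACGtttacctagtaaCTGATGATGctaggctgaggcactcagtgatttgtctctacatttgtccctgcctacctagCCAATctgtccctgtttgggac
CD74, chr5:150412911-150413060, strand -: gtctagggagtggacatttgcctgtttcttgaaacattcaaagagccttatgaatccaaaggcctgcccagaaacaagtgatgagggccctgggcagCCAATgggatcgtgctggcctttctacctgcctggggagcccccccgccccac
HLA-DOA, chr6:33009592-33009741, strand -: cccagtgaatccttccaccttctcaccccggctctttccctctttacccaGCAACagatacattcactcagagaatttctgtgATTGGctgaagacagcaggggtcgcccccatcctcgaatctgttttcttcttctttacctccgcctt
HLA-DOB, chr6:32817003-32817152, strand -: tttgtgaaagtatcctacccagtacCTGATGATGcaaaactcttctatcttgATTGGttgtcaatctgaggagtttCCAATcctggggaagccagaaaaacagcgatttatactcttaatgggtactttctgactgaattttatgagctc
HLA-DRB1, chr6:32589849-32589998, strand -: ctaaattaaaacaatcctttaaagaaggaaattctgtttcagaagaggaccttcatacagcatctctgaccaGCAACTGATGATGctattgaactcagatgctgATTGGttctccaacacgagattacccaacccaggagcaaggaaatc
The X box core was found before HLA-DMA, HLA-DMB, HLA-DOB and HLA-DRB1, and in 0.271% of 35116 promoter windows of 250 bases before to 50 bases after a start. In HLA-DMA, HLA-DOB and HLA-DRB1 it was followed on the same strand by a Y box after 20, 18 and 19 bases, and 3 of the 35116 windows held such a pair 15 to 25 bases apart. The core and the spacing were both chosen after these promoters were read, so that their rarity elsewhere is a description and supports nothing about these genes. In HLA-DRB1 the X1 element overlaps the core. HLA-DRB1 was the one classical chain of 8 with a window to hold the core, whereas 7 of the 8 held a Y box, so it does not stand for the classical chains, which all rose. Before HLA-DMB the Y box stands on the other strand and nearer to the start, and the X2 element lies before the core. HLA-DOA had an X1 element and a Y box without the core, and CD74 had a Y box on the other strand. Only exact letter matches were sought, so a box with other letters would be missed. The lack of a match therefore does not show that a promoter lacks the box.

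The separate elements were common. ATTGG was present in 34.6% of all windows, GCAAC in 33.6% and TGACG in 24.6%. HLA-DMA and HLA-DOB carried the same pair of elements while their log2 fold changes were 0.70 and -0.14, so these letters did not divide the genes that rose from those that were not called. Windows were at hand for 9 of the 10 members, all but CIITA. In the 8 windows of RFX5, RFXAP, RFXANK and CREB1 the core was not found.

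**Figure D3:**
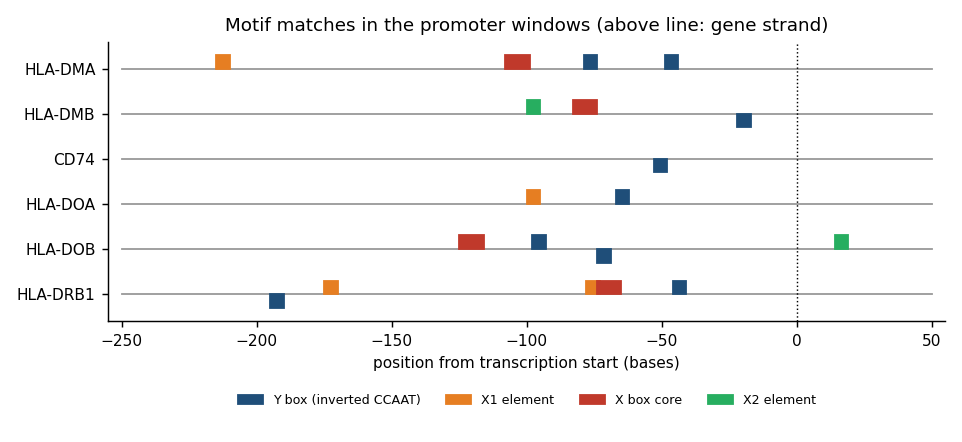
Motif matches by distance in bases from the transcription start for HLA-DMA, HLA-DMB, CD74, HLA-DOA, HLA-DOB and HLA-DRB1, drawn above the line for the strand of the gene and below it for the other strand. The X box core, in red, is followed by a Y box, in blue, on the gene strand in HLA-DMA, HLA-DOB and HLA-DRB1.

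The genes around these members were described by 7 lists, with each gene read on its brightest probe. The listed genes RFX4, RFX6, IRF4, LGMN and MARCH1 had no probe with a weight above 0 on all arrays and were not tested. Of 73 genes tested, 12 were called, all higher, of which 11 were classical class II chains. Over all genes read in this way 0.596% were called higher and 0.755% lower. The 12 fell to 2 without siRNA-A, 1 without siRNA-B, 5 without control siRNA-1 and 3 without control siRNA-2, and to 4 or 5 after background subtraction with or without scaling. All 11 classical chains tested rose, with log2 fold changes of 0.45 to 1.63 and a median of 0.60, against a median of -0.02 for all 20654 genes. The study described class II chains from these same arrays, so this count is not independent evidence, and the HLA-DRB and HLA-DQ chains share much sequence. Whether probes of similar chains read each other's transcripts was not tested. Of the 11 chains, 10 were well above background on all arrays, and HLA-DQA2 was so on 2. The largest rises were 1.63 for HLA-DPB1 (adjusted p = 0.0240 in limma), 1.60 for HLA-DPA1 (adjusted p = 0.0321 in limma) and 0.96 for HLA-DQA1 (adjusted p = 0.0336 in limma), and these adjusted calls too were lost in 9 of 12 alternative fits. HLA-DRA (0.87), HLA-DQB2 (0.67) and HLA-DQB1 (0.60) followed in log2 fold change with an adjusted p above 0.05. HLA-DMB thus stood near the chains of HLA-DP, while CD74 and HLA-DMA lay within the range of the HLA-DQ and HLA-DR chains in log2 fold change.

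The remaining called gene was IFI30, a lysosomal thiol reductase that unfolds antigens for class II loading. It read 10.23 and 10.69 after knockdown and 9.75 and 9.34 in the controls, a log2 fold change of 0.91 (SE 0.18, adjusted p = 0.207 in limma). The call was lost without any one of the 4 arrays and after background subtraction, both with and without scaling. IFI30 was the 1 gene called of 9 in the list of lysosomal proteases and reductase, and 3 of the 9 passed an unadjusted p under 0.05 in limma, against 8.2% of all genes. The cathepsins, which cut antigens and the invariant chain, were not called. The other genes to pass the looser level went opposite ways, CTSB at 0.42 (adjusted p = 0.490 in limma) and CTSL1 at -0.28 (adjusted p = 0.568 in limma). CTSS, the protease best known for invariant chain cleavage, had a log2 fold change of -0.17.

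In the other lists 0 genes were called in limma, and the counts at an unadjusted p under 0.05 that follow stand beside the same 8.2% of all genes. Of 8 genes for NF-Y subunits and CIITA coactivators, 0 also passed an unadjusted p under 0.05, and the largest changes were 0.17 for KAT2B and 0.17 for CREBBP, both histone acetyltransferases. Of 11 other RFX and CREB family genes, 0 passed that level, with CREM at -0.29 and RFX7 at -0.26. Of 12 upstream regulators of CIITA, 0 passed it, and the largest were 0.23 for IFNGR1, a chain of the interferon gamma receptor, and -0.15 for USF1, which binds a CIITA promoter. Of 13 interferon response genes, 0 passed it, with GBP2 at -0.46 and CXCL10 at -0.20, but only 10 of the 13 were well above background on all arrays, ICAM1 being so on 0 and GBP1 on 1. Of 9 partners of CD74 and genes of class II traffic, 1 passed it, CXCR4 at 0.39 (adjusted p = 0.520 in limma), a receptor that pairs with CD74, and MARCH8, a ubiquitin ligase of class II molecules, read -0.29 and was well above background on 2 arrays. The medians of these 5 lists ranged from -0.14 to 0.04.

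**Figure D4:**
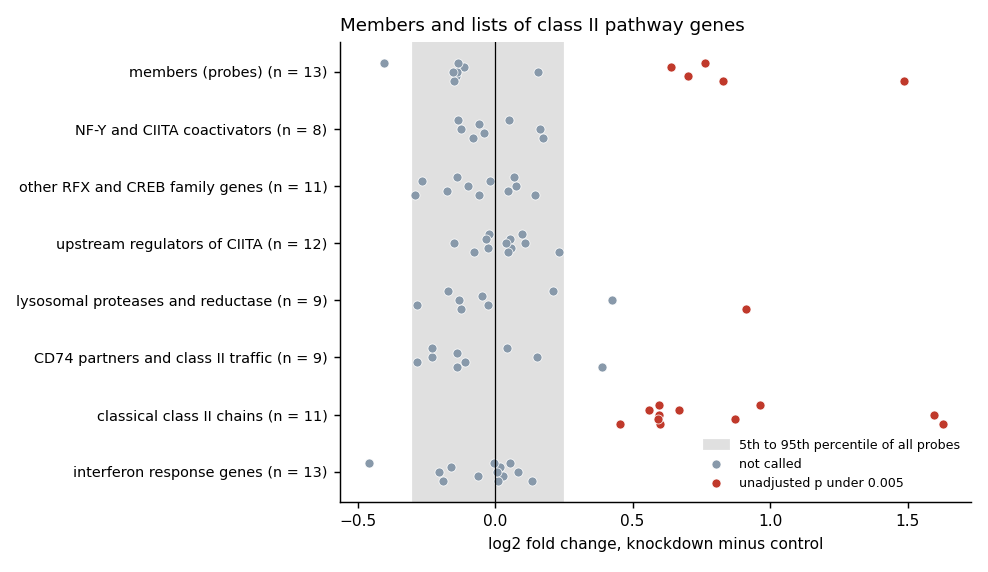
Log2 fold change of knockdown over control for the 13 member probes and for the genes of the 7 lists, each gene by its brightest probe, with called ones in red. The grey band holds the 5th to 95th percentile of all probes. All 11 classical class II chains lie at 0.45 or above, and the interferon response genes lie between -0.46 and 0.14.

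The labelled cell type was checked on marker lists. All 8 monocytic and myeloid markers tested were well above background on all arrays, and their summed intensity was 67454 to 70818 after knockdown and 69317 to 71929 in the controls, a sum to which CEBPA gave the most. CD14, a monocyte surface receptor, was the one marker called, with a log2 fold change of 1.05 (adjusted p = 0.0355 in limma, above 0.05 in 9 of 12 alternative fits). Detection did not set the cell types apart, since 4 of 4 T cell, 5 of 6 B cell and 2 of 4 dendritic cell markers tested were also well above background on all arrays, among them CD79A, a B cell receptor chain, at 10.70 and 10.82 after knockdown and 10.75 and 10.81 in the controls. The other cell types had no called marker: 0 of 6 B cell, 0 of 4 T cell and 0 of 4 dendritic cell markers, of which 0 passed an unadjusted p under 0.05 in limma. With so few genes and 8.2% of all genes passing that level, these counts say little about the markers. Their summed intensities were 2376 to 2530 against 2420 to 2496 for B cells, 232.5 to 255.0 against 232.0 to 237.5 for T cells, and 3872 to 4466 against 4059 to 4083 for dendritic cells. A bright probe, such as that of CD79A, can set most of such a sum, so the sums do not show how the other markers behaved. MS4A1 (CD20) was well above background on 1 array, and EBF1 and CR2, CD1A, CD1C and CLEC9A, and TRAT1 had weight 0 and were not tested. As a check of the knockdown, MLLT3 (AF9) had a log2 fold change of -0.76 (adjusted p = 0.0639 in limma), HOXA9 -0.56 (adjusted p = 0.294 in limma) and MLL -0.41 (adjusted p = 0.403 in limma), each lower on both knockdown arrays. MLL, with an unadjusted p in limma of 0.00590, was not called. The study reported no significant change of wild-type MLL and AF9 transcripts. Whether the MLL and MLLT3 probes read the fusion, the wild-type transcripts or both was not tested. Their values therefore do not give the depth of the fusion knockdown. In pooled RNA of this kind, more cells with a transcript and more of it per cell cannot be told apart.

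**Figure D5:**
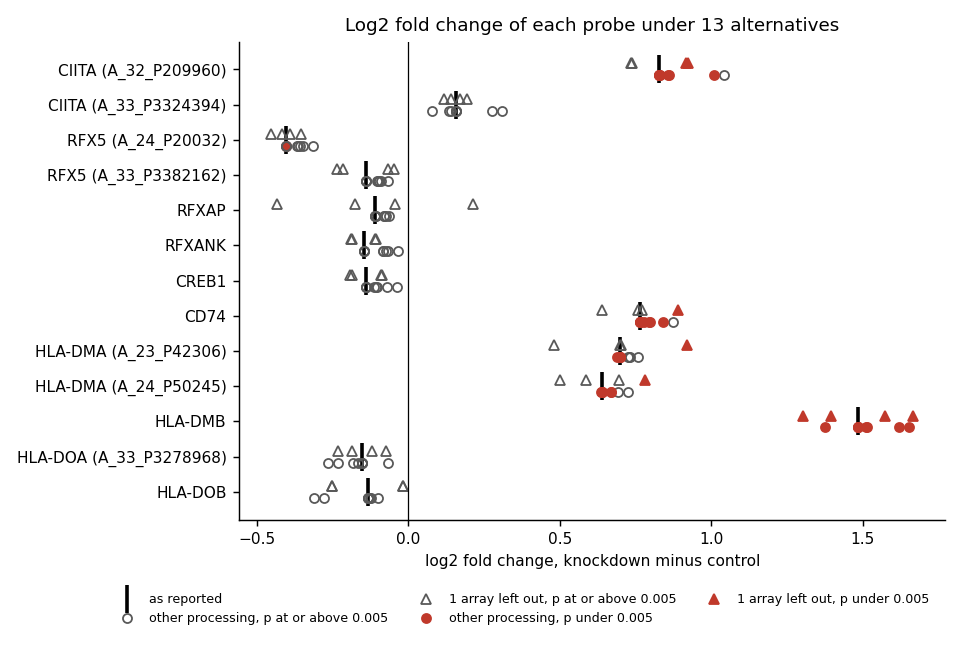
Log2 fold change of the 13 member probes as reported (black bars), under other processing (circles) and with 1 array left out (triangles), filled in red where the unadjusted p in limma was under 0.005. HLA-DMB is red in all 13 alternatives, and RFXAP is the one probe that changes sign.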

How the data were processed

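Gene expression was measured on 4 single-colour Agilent 4x44K arrays, 2 after knockdown of MLL-AF9 and 2 controls. The authors extracted signals with Agilent Feature Extraction 10.5.1.1 and deposited for each spot an intensity, which matched the median signal of the pixels in 100% of spots, without background correction or normalization, and a quality weight, a score whose rule is not given in the sources used here. Of 44495 spots, 33323 on 26219 probes were not controls and had weights above 0 on all arrays. Log2 intensities, averaged over identical spots, entered limma 3.58.1 (R 4.3.3) with these weights, and all probes were fitted together. P-values are two-sided, Benjamini-Hochberg adjustment was over all probes, and p-values measure the spread between these arrays, each a pool. The number of arrays limits the precision. Members, lists and alternatives were chosen with earlier results of these data known. All probes of members are named. Of each list the called genes (up to 6), or otherwise those with the 2 largest absolute changes, are named, and a few beyond this (CTSB, CTSL1, CTSS and single markers) were chosen after their values were seen. The fit was tested on simulated data. Alternatives were the background-subtracted signal scaled to its 75th percentile or unscaled, quantile and cyclic loess normalization, normexp with an offset of 50, no weights, a filter on dim probes, a variance trend, each array left out, an adjusted p, and single spots, which was chosen after seeing the data. Of 61 columns per scanner file, 53 were not used. RT-qPCR and protein data of the study were not analysed here.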

Additional observations from a re-analysis of the deposited data

How the results depend on the processing

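HLA-DMB was called in all 13 alternatives tried for single probes, with log2 fold changes of 1.30 to 1.67, but its adjusted p was under 0.05 in only 3 of 12 (no weights, the filter on dim probes and the variance trend). The CIITA probe A_32_P209960 (0.73 to 1.04) was called in 10 of 13, CD74 (0.64 to 0.89) in 9, and the HLA-DMA probes A_24_P50245 (0.50 to 0.78) and A_23_P42306 (0.48 to 0.92) in 8 and 6, all with the same direction. CIITA lost its call without siRNA-A or control siRNA-2, and after scaling of the background-subtracted signal, where its log2 fold change was 1.04 and its p in limma just missed 0.005. Of 5 member probes called higher, the number after background subtraction was 1 with scaling and 3 without, and it was 1 at an adjusted p under 0.05, and 1 to 5 with an array left out. Against 0 probes called lower, 1, of RFX5, was called with only probes well above background. Of 12 pathway genes, after background subtraction 4 were called with scaling and 5 without, 3 at an adjusted p under 0.05, and 1 to 5 with an array left out, where the remaining array of that group was taken to vary as the rest do. RFXAP ranged from -0.43 to 0.21 with an array left out, and reversed to 0.21 without control siRNA-2. IFI30 was called in 6 of 12 alternatives (0.68 to 1.14). The difference between the CIITA probes ranged from 0.55 to 0.80, and that between the RFX5 probes from -0.41 to -0.12. The causes of these changes were not tested. No paired analysis was possible because each array was a pool of 5 independent experiments, and the replicate numbers are those of the siRNAs. Probes near the negative control spots, those of HLA-DOA and the 5' probe of CIITA, limit what can be read from them.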

Other observations

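The control arrays differed from each other on transcripts that rose and on some that were not called. All 5 called member probes read lower on control siRNA-2 than on control siRNA-1, as did 10 of the 11 classical class II chains, against 31.3% of all probes. On the log2 scale control siRNA-2 minus control siRNA-1 was -0.19 for the CIITA probe A_32_P209960, -0.25 for CD74, -0.28 and -0.44 for the HLA-DMA probes and -0.36 for HLA-DMB. Among the probes that were not called it was -0.24 for HLA-DOB and -0.15 for the RFX5 probe A_33_P3382162, but 0.65 for RFXAP and 0.16 for the tested HLA-DOA probe. Of the 5 called probes, 4 read higher with siRNA-A than with siRNA-B. The share of all probes with that order was not counted, so this is a description only. The median log2 intensity was 8.56 on the siRNA-A array and 8.62 on the siRNA-B array. With 1 array for each siRNA, a difference between siRNAs and one between pools cannot be told apart.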
